A study of Mus musculus with 2 samples.

Results

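Actn2, Actn3, Myoz1, Myoz2, Myoz3, Myot and Tcap encode the sarcomeric alpha-actinins and small proteins that attach to them or to titin at the Z-disc of striated muscle. The genes were taken by name, and every transcript model listed under them was used: 333 models of 75228 in replicate 1 and 382 of 94598 in replicate 2. They are 7 of 15521 annotated genes with reads, and they held 2.18% of the mouse reads in replicate 1 and 2.03% in replicate 2 (2.10% ± 0.111, SD, n = 2). All 7 had the 10 or more reads over both libraries that the comparison of read numbers required.

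The libraries are long-read RNA sequencing of the gastrocnemius, a calf muscle of mostly fast fibres, from female mice aged 25 days. The mice were B6CASTF1/J, an F1 hybrid of the C57BL/6J and CAST strains, with no treatment named, and alleles of both parents were counted together. Each library was made from 2 µg of total RNA. The labels give 1 group of 2 biological replicates, from animals numbered 3 and 4 under a common donor record, so no conditions can be compared, and every test below compares these libraries only. In whole muscle, fewer fibres of a type and less RNA per fibre cannot be told apart.

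The Z-disc joins neighbouring sarcomeres, and alpha-actinin dimers crosslink the actin filaments that meet there. Myozenins (also called calsarcins) bind alpha-actinin and tether the phosphatase calcineurin, myotilin crosslinks actin and binds alpha-actinin, and telethonin caps the ends of titin. Actn3 is known as the alpha-actinin of fast glycolytic fibres and Actn2 as that of all sarcomeres. Myoz1 and Myoz3 are known from fast fibres and Myoz2 from slow fibres and heart.

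Replicate 1 held 1069771 mouse reads and replicate 2 held 1557594, and 3 reads, the most that a count of 0 allows, equal 2.80 and 1.93 CPM (reads scaled to the mouse reads of the library). The median read fell in a model of 2294 bases in replicate 1 and of 1446 bases in replicate 2. Markers of fast fibres summed to 238858 and 160149 CPM, with 10 of 10 genes read. The calcium pump gene Atp2a1 alone went from 157924 to 56409 CPM, while 6 of the 10 were higher and 4 lower in replicate 2, with a median log2 ratio of 0.71. This split followed transcript length: the 6 higher had models of 700 (Tnnc2) to 1044 bases (Tnnt3), the 4 lower of 1847 (Casq1) to 6081 (Myh1). With the trend of the ratio with length removed, Tnni2 (-0.03) and Mylpf (0.03) no longer passed. Markers of slow fibres summed to 1057 and 8124 CPM, with 9 of 9 read. Of 8 heart markers, 7 had no read in either library, and the exception, Myh6, had 3 and 4 reads. Tendon markers summed to 1232 and 1482 CPM, mostly from Col1a1 (1149 and 1046 CPM), and 6 of the 7 were higher in replicate 2, with a median log2 ratio of 2.27. Smooth muscle markers summed to 143 and 55.2 CPM, with 4 of 5 lower. The part of these differences in the results on the Z-disc genes was not tested.

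A long read stands for 1 transcript molecule, so CPM was not divided by length and the model lengths are given beside it. Tcap and Actn3 were the most read members, at ranks 13 and 14 of all annotated genes by mean CPM. Myoz1 and Actn2 followed at ranks 28 and 29, Myot at 59, Myoz2 at 399 and Myoz3 at 4765. Neighbours in this order overlapped between libraries for Tcap with Actn3 and for Myoz1 with Actn2. The 4 other steps down the order were larger than the spread between the libraries.

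**Figure D1:**
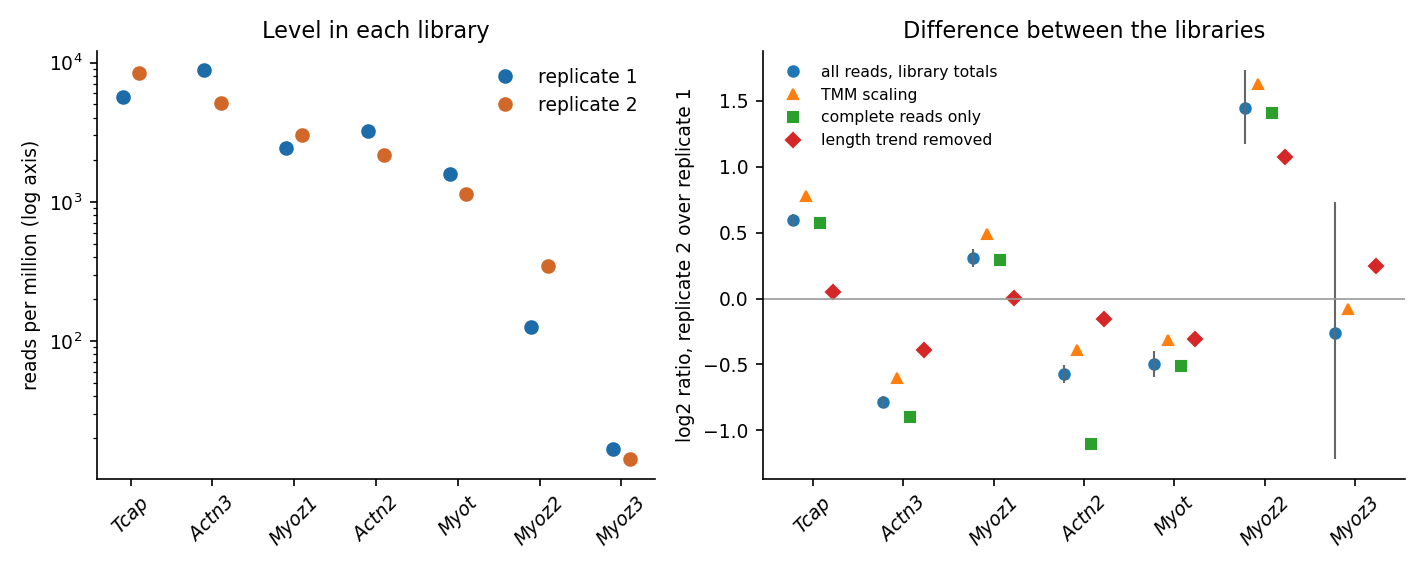
Left: CPM (log axis) of the 7 genes in each library. Right: log2 ratio of replicate 2 over replicate 1 with 0.5 reads added, under 4 ways of computing it; bars on the library-total values are exact 95% intervals for counting error. Myoz2 stands highest, at 1.44, and the ratios of Tcap and Myoz1 come to 0.05 and 0.00 once the trend with transcript length is removed.

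Read numbers differed between the libraries for 6 of the 7 genes, 3 higher and 3 lower in replicate 2. The test was Fisher's exact test, two-sided, with Benjamini-Hochberg adjustment over 8892 genes at a threshold of 0.05. It called 26.0% of all genes, 11.1% higher and 14.9% lower. Many of the genes tested had few reads, while the 6 called here had 135 or more in each library. The uncalled gene, Myoz3, had the fewest reads of the 7. With more reads this test calls smaller ratios, so 6 of 7 against 26.0% is not read as a feature of Z-disc genes. The median log2 ratio over all genes tested was -0.18. Over the 7 genes the median, -0.26, is the value of Myoz3, with 18 and 22 reads, and so does not describe the other members. Scaling by TMM or by DESeq2 size factors adds 0.18 to every log2 ratio and left the sign of all 7 as it was.

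Actn3, the fast-fibre alpha-actinin (ENSMUSG00000006457.4, mm10 chr19:4861216-4877909, minus strand, 21 exons, 2887 bases), had 9433 reads in replicate 1 and 7975 in replicate 2. That is 8818 and 5120 CPM, with replicate 2 the lower (6969 ± 2615 CPM, SD, n = 2). The log2 ratio was -0.78 (95% interval -0.83 to -0.74, adjusted p = 1.29e-279 by Fisher's exact test). With the length trend removed it was -0.39 and stayed past the threshold (adjusted p = 8.26e-70 by an exact binomial test).

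Actn2, the alpha-actinin of all fibres (ENSMUSG00000052374.16, chr13:12269426-12340760, minus strand, 21 exons, 3013 bases), had 3438 and 3362 reads. Replicate 2 was again the lower, at 2158 CPM against 3214 CPM (2686 ± 746 CPM, SD, n = 2). The log2 ratio of -0.57 (-0.64 to -0.51) passed the test (adjusted p = 2.68e-58, Fisher's exact test). It was -0.15 with the length trend removed (adjusted p = 2.73e-04, exact binomial test) and -1.11 when only complete reads were counted. The length trend was applied at 3013 bases to all Actn2 reads, also to those of the shorter form described below.

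Of the reads of both sarcomeric alpha-actinins, Actn3 took 73.3% (exact Clopper-Pearson 95% interval 72.5 to 74.1) in replicate 1 and 70.3% (69.5 to 71.2) in replicate 2. The lower share in replicate 2 passed Fisher's exact test (adjusted p = 5.21e-07 over 4 shares tested). Counting only reads with a complete exon chain turned the direction, to 78.8% in replicate 1 and 81.1% in replicate 2 (adjusted p = 9.76e-05, Fisher's exact test). The direction therefore depends on whether the incomplete Actn2 reads described next are counted. The alpha-actinins known from cells outside the sarcomere were scarce: Actn4 had 58 and 25 reads (log2 ratio -1.74) and Actn1 had 5 and 3. Coding sequences of Actn2 and Actn3 were 75.2% identical over 2685 aligned positions, and the 2 genes share the exon layout. All 19 internal exons had equal lengths in both, with 66.7% to 88.5% identity.

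A form of Actn2 that begins at exon 12 was read often. Its chain joins exons 12 to 21, the last 10 of the 21, and is 1498 bases long. It held 815 reads, 23.7% of the gene's reads (22.3 to 25.2), in replicate 1 and 1478 reads, 44.0% (42.3 to 45.7), in replicate 2. The annotated full-length chain of 21 exons held 2278 and 1518 reads. So the short chain was 1 of 2 main forms in both libraries, and it was close to the full-length chain in number in replicate 2.

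The exon 12 sequences are shown because exon 12 is the first spliced exon of 24.4% and 44.9% of Actn2 reads, against 0.276% and 0.602% of Actn3 reads. Both are 151 bases long and wholly coding, are read from GENCODE M21 transcripts on mm10, and run along the minus strand (chr13:12288507-12288657 for Actn2 and chr19:4865299-4865449 for Actn3). Capitals mark ATG triplets in the reading frame of the protein.
Actn2 exon 12: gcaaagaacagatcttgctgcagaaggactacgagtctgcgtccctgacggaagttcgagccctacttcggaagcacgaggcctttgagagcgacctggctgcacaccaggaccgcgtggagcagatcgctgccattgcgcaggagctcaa
Actn3 exon 12: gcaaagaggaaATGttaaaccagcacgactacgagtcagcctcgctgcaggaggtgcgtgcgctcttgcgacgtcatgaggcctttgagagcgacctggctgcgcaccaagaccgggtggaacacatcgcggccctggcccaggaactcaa
The exons were 75.5% identical, near the median of 75.8% over the internal exons. The Actn3 exon holds 1 in-frame ATG and the Actn2 exon holds 0. Exons 12 to 21 carry 1430 of the 2685 coding bases of Actn2, or 53.3%.

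Junction by junction, 72.5% of Actn2 reads in replicate 1 were spliced at junction 11, between exons 11 and 12, and 96.9% at junction 12. In replicate 2 these shares were 50.1% and 95.0%. Elsewhere along Actn2 the share changed little from one junction to the next, from 68.4% at junction 1 to 72.5% at junction 11 in replicate 1 and from 47.1% to 50.1% in replicate 2. Actn3 had no such step: 97.0% and 97.5% of its reads were spliced at junctions 11 and 12 in replicate 1, and 91.4% and 92.1% in replicate 2. Counting all chains whose first spliced exon was exon 12, Actn2 had 839 and 1509 reads and Actn3 had 26 and 48.

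**Figure D2:**
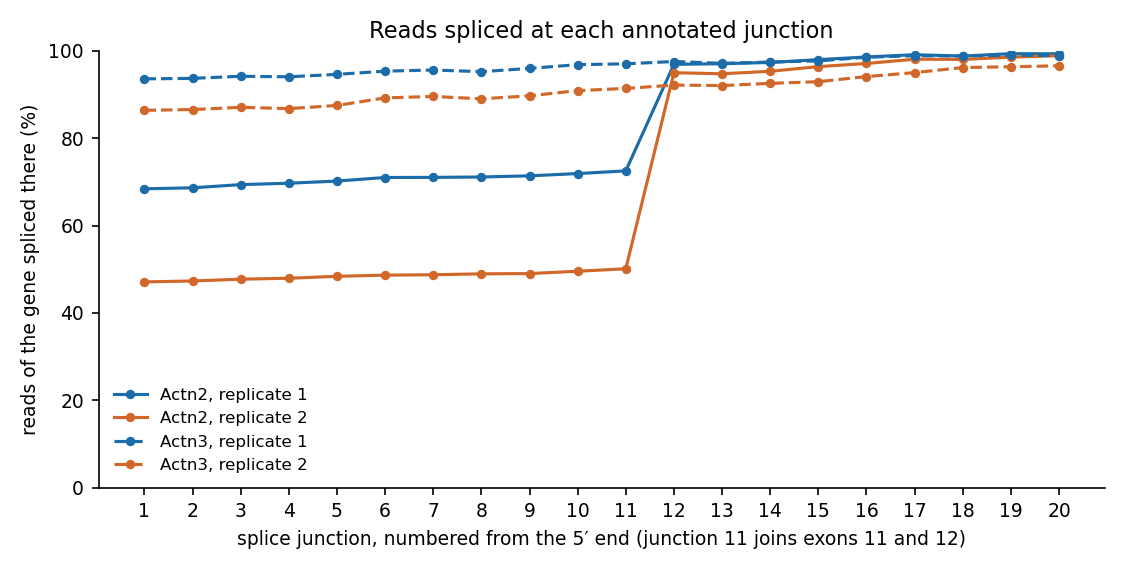
Percent of a gene's reads spliced at each of its 20 annotated junctions, numbered from the 5′ end, for Actn2 (solid) and Actn3 (dashed) in each library. Actn2 steps from 72.5% to 96.9% in replicate 1 and from 50.1% to 95.0% in replicate 2 between junctions 11 and 12, and Actn3 shows no step there.

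Chains of this kind are usually a small part of a gene's reads. Over 2488 genes with 100 or more reads, the most read 5′-incomplete chain held a median of 1.34% of the reads of both libraries together, against 33.7% for Actn2. At or above Actn2 stood 51 genes, or 2.05%. The values were 1.09% for Actn3, 1.47% for Myoz1, 1.94% for Myoz2 and 4.47% for Myot. The Myot model begins inside intron 1, before exon 2, so it need not be a shortened form. Tcap, with a single intron, can have no such chain. The deposited Actn2 model starts exactly at the edge of exon 12. Whether that start comes from the reads or from the annotation is not known here. Where within the exon or the intron before it these reads begin is therefore not resolved. The origin of these reads was not tested.

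Incomplete chains, the ISM class of the deposited tables, took 30.9% of Actn2 reads in replicate 1 and 52.3% in replicate 2 (adjusted p = 3.08e-69, Fisher's exact test). For Actn3 they took 6.34% and 13.7% (adjusted p = 1.54e-57, Fisher's exact test). Among 4149 genes with 20 or more reads in each library, 8.85% differed, 7.11% with a higher share in replicate 2 and 1.74% with a lower one. Myoz1 stood at 2.64% and 2.88%, Myoz2 at 3.70% and 5.04%, Myot at 7.56% and 8.75%, and none of these differences passed (adjusted p = 0.739 for Myot and 1 for the others, Fisher's exact test). Tcap had no ISM read among 6005 and 13189, but with a single intron it has no shorter spliced chain. Its count was thus fixed in advance, and Myoz3 had too few reads for the test. The class held 8.51% of the reads of all annotated genes in replicate 1 and 12.3% of those in replicate 2, so that both alpha-actinins moved in the direction of the whole library.

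**Figure D3:**
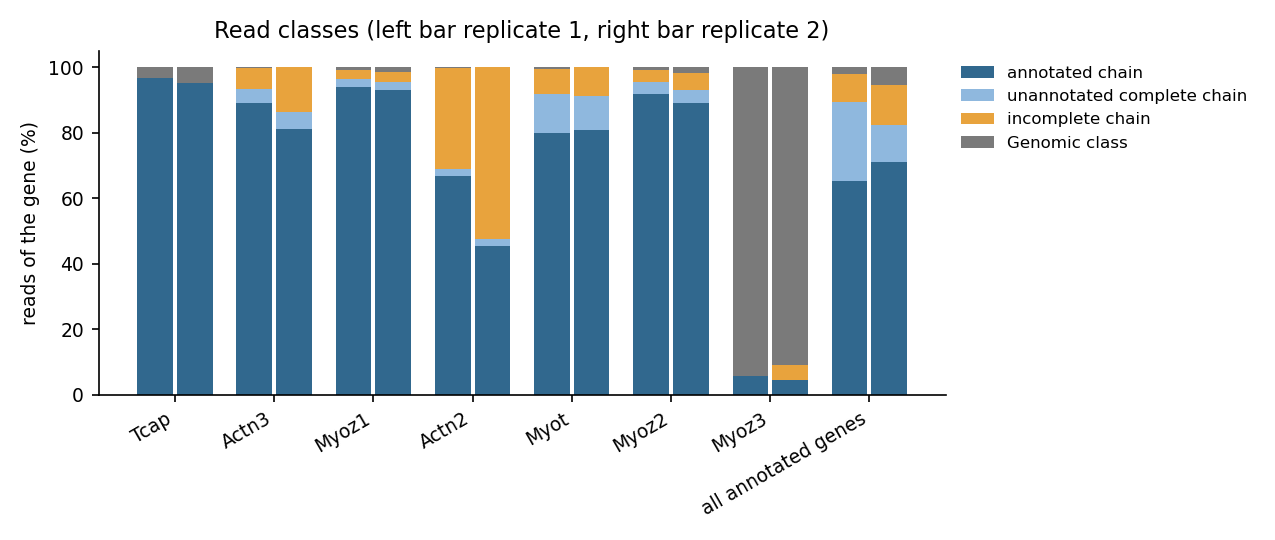
Percent of each gene's reads by the class of their transcript model, with replicate 1 on the left and replicate 2 on the right of each pair of bars. Actn2 has the largest incomplete share of the 7 genes, 30.9% and 52.3%, and Myoz3 is almost wholly of the Genomic class, 94.4% and 90.9%.

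Among complete reads, 1 annotated isoform led both alpha-actinins. The 21-exon isoform took 96.3% of complete Actn2 reads in replicate 1 and 94.9% in replicate 2. For Actn3 its 21-exon isoform took 95.1% (94.7 to 95.6) and 93.3% (92.7 to 93.9). Isoform shares were compared over 1700 genes by exact or Monte Carlo permutation tests of the reads, and 2.18% of the genes differed. Actn3, with 23 isoforms, differed (adjusted p = 0.00113, permutation test), and Actn2 did not pass (adjusted p = 0.942, permutation test).

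A short Actn3 form ended inside the gene. It joins exons 1 to 8 to a last exon that lies in intron 8, at chr19:4868810-4869116, and its model is 1163 bases long. It had 15 reads in replicate 1 (0.159% of the gene's reads, 0.0890 to 0.262) and 45 in replicate 2 (0.564%, 0.412 to 0.754), and these intervals do not overlap. The model's last base is the first base of exon 9, so the exact end is not resolved. Exons 1 to 8 carry 801 of the 2703 coding bases of Actn3. Another unannotated form of Actn3 replaces exon 1, which holds 144 coding bases, by an exon of 150 bases in intron 1 (chr19:4876767-4876916), and had 12 and 13 reads. The last intron of Actn3, of 81 bases, was retained in 43 and 64 reads, and intron 16, of 95 bases, in 19 and 56.

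Most other unannotated splicing of the alpha-actinins lay within a few bases of annotated sites. Of 92 unannotated splice sites in Actn3 reads, 45 were within 10 bases of an annotated site, and they were used 521 times in replicate 1 and 491 times in replicate 2, against 51 and 98 uses of the others. In Actn2 21 of 43 such sites were near an annotated one, with 80 and 92 uses. The exon starts that follow, on the minus strand of mm10, hold the 3 most used sites inside exons of Actn2 and the 5 most used of Actn3. They are shown for the letters left out, in capitals, when a read was spliced to the inner site.
Actn2 exon 14: AGaactgagaagttgctggaaacaatcgac
Actn3 exon 14: AGgatggagaagctcctggagaccattgac
Actn2 exon 15: AGtctgatcactgcacatgagcagttcaag
Actn3 exon 15: AGcctgctaacagcacacgaacagttcaag
Actn2 exon 19: AGgaagaacggcctgatggatcatgaggat
Actn3 exon 5: AGacctcagccaaagaaggcttgcttctct
Actn3 exon 9: GCAGagactgctgccaacaggatctgcaag
Actn3 exon 16: GTCAGaaagctggtacccagccgtgaccag
Each begins at the exon's annotated 5′ edge, and the left-out letters end in AG in all 8. The 3 Actn2 exons are at chr13:12280540-12280569, chr13:12278947-12278976 and chr13:12272735-12272764. The Actn3 exons 5, 9, 14, 15 and 16 begin at chr19:4871655-4871684, chr19:4868781-4868810, chr19:4864536-4864565, chr19:4864124-4864153 and chr19:4863515-4863544.

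Exons 14 and 15 begin with AG in both genes, and both genes used the site 2 bases in. At exon 15, 16 reads in replicate 1 and 18 in replicate 2 of Actn2 left out the first 2 bases, 0.476% and 0.559% of those spliced to either site, and for Actn3 65 and 50 reads did, 0.702% and 0.673%. At exon 14 the shares were 0.388% and 0.593% for Actn2 and 0.651% and 0.730% for Actn3. The most used inner site was that of Actn3 exon 16, with 70 and 55 reads, 0.754% and 0.736%. For exons 14, 15 and 16 of Actn3 the intervals of the libraries overlapped.

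Over all 7 genes, 40 of the positions 2 to 8 bases inside an exon follow the letters AG, and 32 of them had reads, 20 with 5 or more. Of the 422 other positions, 4 had reads and 0 had 5 or more. The AG positions drew 454 reads in replicate 1 and 423 in replicate 2, against 2 and 4 for the rest. The motif searched was AG on the transcribed strand only, at the end of the bases left out. The sources used here do not say how junctions without these letters were treated upstream, so the count describes the deposited models.

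**Figure D4:**
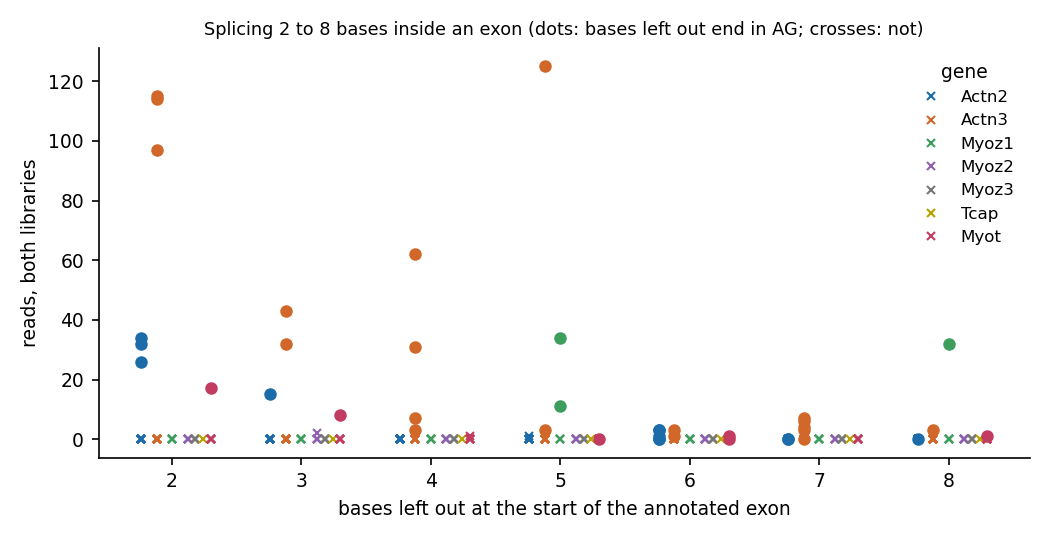
Reads of both libraries spliced 2 to 8 bases inside an annotated exon, by the number of bases left out, with 1 mark for each exon and position. Dots are positions where the bases left out end in AG and reach 125 reads at Actn3 exon 16; crosses are the other positions, all of which have fewer than 5 reads.

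Tcap, which encodes telethonin (ENSMUSG00000007877.2, chr11:98383811-98384953, plus strand, 2 exons, 948 bases), had 6005 reads in replicate 1 and 13189 in replicate 2. It stood at 5613 and 8468 CPM, the higher in replicate 2 (7040 ± 2018 CPM, SD, n = 2). The log2 ratio was 0.59 (0.55 to 0.64, adjusted p = 2.43e-159, Fisher's exact test). With the length trend removed it was 0.05 and no longer passed (adjusted p = 0.153, exact binomial test).

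The single intron of Tcap, of 195 bases, was retained in 190 reads of replicate 1 and 625 of replicate 2. These were 3.17% and 4.74% of the reads that cover it. Apart from them Tcap had almost no other form: the spliced annotated isoform took 99.8% of complete reads in replicate 1 and 99.9% in replicate 2. The coding bases on either side of the intron are shown as the place where these forms part, at chr11:98383927-98383956 and chr11:98384152-98384181, with no capitals.
Tcap exon 1 end: cctgactctgtctacccggccggaagaggg
Tcap exon 2 start: atgctccttgcacgaggaggatacacagag
Unspliced Tcap reads are of the Genomic class and are not counted as isoforms, so the isoform test (adjusted p = 1, permutation test, 3 isoforms) does not cover them, and the difference between 3.17% and 4.74% was not tested. The Genomic class took 2.21% of the reads of all annotated genes in replicate 1 and 5.50% in replicate 2.

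Myoz1, the main myozenin here (ENSMUSG00000068697.7, chr14:20649107-20656540, minus strand, 6 exons, 1289 bases), had 2618 and 4716 reads, or 2447 and 3028 CPM (2738 ± 410 CPM, SD, n = 2). Replicate 2 was the higher, with a log2 ratio of 0.31 (0.24 to 0.38, adjusted p = 4.79e-17, Fisher's exact test). Removal of the length trend brought it to 0.00 (adjusted p = 0.999, exact binomial test). Of all myozenin reads Myoz1 took 94.5% (93.6 to 95.3) in replicate 1 and 89.4% (88.6 to 90.2) in replicate 2, and this share differed (adjusted p = 1.04e-14, Fisher's exact test).

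Myoz2, the slow-fibre and cardiac myozenin (ENSMUSG00000028116.13, chr3:123006206-123035015, minus strand, 6 exons, 1181 bases), had 135 reads in replicate 1 and 536 in replicate 2. At 126 and 344 CPM it differed most between the libraries on the log2 scale of the 7 genes (235 ± 154 CPM, SD, n = 2). The log2 ratio was 1.44 (1.17 to 1.73, adjusted p = 4.69e-28, Fisher's exact test). Unlike those of Tcap and Myoz1, it stayed past the threshold with the length trend removed, at 1.07 (adjusted p = 1.23e-14, exact binomial test). Its share of myozenin reads was 4.87% in replicate 1 and 10.2% in replicate 2 (adjusted p = 1e-16, Fisher's exact test). The slow-fibre markers were also higher in replicate 2: 8 of the 8 tested, against 11.1% of all genes, with a median log2 ratio of 3.11. Among them Tnnt1, slow troponin T, stood at 191 and 3445 CPM. The heart markers were at or near 0 in both libraries. The part of either tissue or fibre type in the Myoz2 result was not tested.

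Myoz3, the third myozenin (ENSMUSG00000049173.8, chr18:60573750-60591788, minus strand, 7 exons, 3436 bases), had 18 and 22 reads, 16.8 and 14.1 CPM (15.5 ± 1.91 CPM, SD, n = 2). The log2 ratio of -0.26 had an interval from -1.22 to 0.73 and did not pass (adjusted p = 0.802, Fisher's exact test). Full-length spliced Myoz3 reads of the annotated 7-exon isoform numbered 1 in each library. The others were nearly all unspliced: 17 and 18 reads of the Genomic class ran 940 bases past the annotated 3′ end of Myoz3, to position 60572810, which is also the annotated end of Rbm22 on the plus strand. Rbm22 had 22 and 30 reads of its own. The models of the unspliced Myoz3 reads meet the annotated Rbm22 at that position only. The sources used here do not say whether counting used strand, so the strand of these unspliced reads is not known. Myoz3 itself was at the limit of detection.

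The coding sequences of the myozenins were 54.5% identical for Myoz1 and Myoz2, 58.3% for Myoz1 and Myoz3 and 57.0% for Myoz2 and Myoz3. The 6-exon annotated isoform led the complete Myoz1 reads with 94.1% (93.2 to 95.0) in replicate 1 and 91.7% (90.9 to 92.5) in replicate 2. Its isoform shares differed (adjusted p = 0.0215, permutation test, 8 isoforms), but not when isoforms with 1 read were let in (adjusted p = 0.062, permutation test). An annotated 2-exon model of 405 bases, with the biotype retained intron, had 76 reads (2.90%) and 255 reads (5.41%), the largest of the other chains. Its single junction is also the last junction of the 6-exon isoform. Shortened reads of that isoform therefore cannot be told apart from it by intron chain. These reads were counted as complete, and not among the incomplete chains of Myoz1. A donor 4 bases into intron 4 was used by 30 and 43 reads of Myoz1, 1.20% and 0.986% of those leaving exon 4.

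Myoz2 reads held several choices of exon. The annotated 6-exon isoform took 86.0% (78.8 to 91.5) of complete reads in replicate 1 and 87.8% (84.6 to 90.5) in replicate 2. Junctions of an annotated 7-exon isoform, with an extra exon between exons 2 and 3 and the biotype nonsense-mediated decay, were in 9 reads (7.20%) and 24 reads (4.99%). Exon 3 was skipped in 1 and 8 reads and exon 5 in 2 and 6. Over the whole gene, exon-skipping junctions had 3 reads in replicate 1 and 16 in replicate 2. In each of Actn2 and Actn3, both read far more, they had 3 and 2. Isoform shares of Myoz2 did not pass (adjusted p = 1, permutation test).

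**Figure D5:**
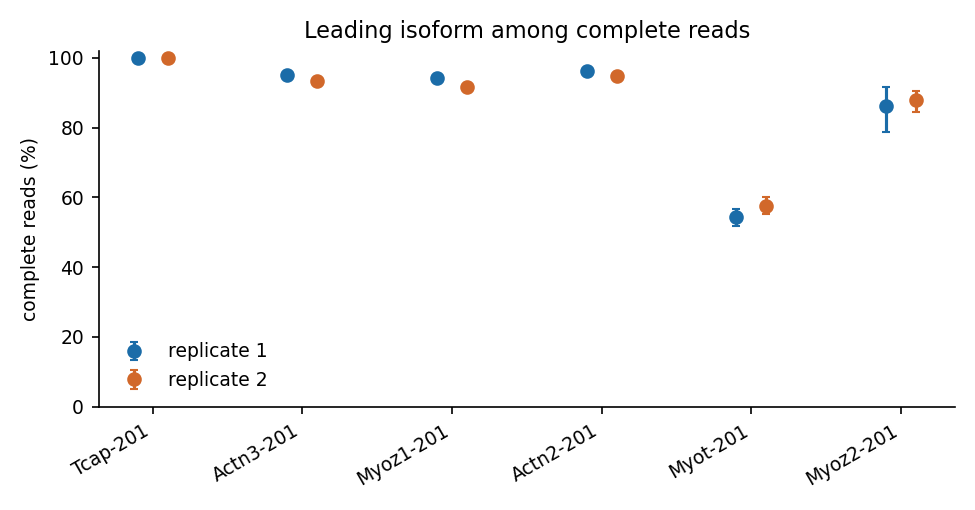
Percent of complete reads that belong to the most read isoform of each gene, in each library, with exact 95% intervals for counting error. That of Myot takes 54.2% and 57.6%, and the leading isoforms of the other 5 genes take between 86.0% and 99.9%; Myoz3, with 1 complete read a library, is not drawn.

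Myot, which encodes myotilin (ENSMUSG00000024471.12, chr18:44334074-44355724, plus strand, 10 exons, 2209 bases), had 1707 and 1760 reads. It stood at 1596 and 1130 CPM, the lower in replicate 2 (1363 ± 329 CPM, SD, n = 2). The log2 ratio was -0.50 (-0.59 to -0.40, adjusted p = 2.18e-22, Fisher's exact test) and -0.31 with the length trend removed (adjusted p = 9.45e-09, exact binomial test). Of the 6 genes with a test of isoforms, Myot was the one without a dominant form.

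The annotated isoform with the whole exon 2 took 54.2% of complete reads in replicate 1 and 57.6% in replicate 2. The other annotated isoform, which differs by an acceptor 122 bases further into exon 2, had 511 and 498 reads. Of reads spliced from exon 1 to either acceptor, 37.8% (35.4 to 40.3) in replicate 1 and 35.1% (32.7 to 37.5) in replicate 2 used the downstream one. Exon 1 is not coding and the start codon lies 191 bases into exon 2, so the 122 bases are 5′ untranslated, and both isoforms carry the same 1491 coding bases. An acceptor 3 bases before exon 5, outside the annotation, was used by 165 and 146 reads, 9.80% (8.42 to 11.3) and 8.52% (7.24 to 9.95) of those entering this exon. It was found with either exon 2 acceptor, in chains of 99 and 83 reads with the first and of 53 and 49 reads with the other. The first of these chains carries the class NNC in replicate 1 and NIC in replicate 2, labels for unannotated chains, so these classes were pooled throughout. The isoform shares of Myot did not pass (adjusted p = 0.935, permutation test, 9 isoforms).

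A few Myot reads began upstream of the gene. They were spliced from the lincRNA AC132130.1, which lies before Myot on the plus strand, into the exons of Myot, in 6 reads of replicate 1 and 9 of replicate 2. More reads, 76 (4.45%) and 79 (4.49%), fell in an incomplete chain of 9 exons that begins inside intron 1. Its model starts at chr18:44335985, before the annotated start of exon 2 at 44336767. The origin of these reads was not tested.

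Other Z-disc genes give the setting of these values. Of 31 listed, 30 were tested, 3 were higher in replicate 2 (Pdlim1, Pdlim7 and Xirp2), 15 were lower and 12 did not pass, with a median log2 ratio of -0.36. Over all genes tested, many with few reads, 11.1% were higher and 14.9% lower. The most read were the intermediate filament gene Des, at 3528 ± 112 CPM, then Fhl1 at 1237 ± 535, the chaperone Cryab at 707 ± 27.6 and the capping protein Capza2 at 606 ± 61.3 (SD, n = 2). Tcap and Actn3 each averaged more than Des, the most read gene of that list. By log2 ratio, the nearest of the 30 were Csrp3 (-0.78) and Ttn (-0.76) to Actn3, Synpo2 (-0.64) and Neb (-0.50) to both Actn2 and Myot, and Pdlim7 (0.49) and Xirp2 (0.47) to Tcap. Capzb (0.14) and Xirp2 were nearest to Myoz1, and Pdlim1 (1.04) and Pdlim7 to Myoz2. This likeness rests on 1 ratio between 2 libraries and on scaling by library totals. With the length trend removed, Actn3 stood at -0.39 against -1.38 for Csrp3 and -0.11 for Ttn, Actn2 at -0.15 against 0.01 for Synpo2, and Tcap at 0.05 against 1.10 for Xirp2. For Ttn the trend was applied at 5665 bases, the length of its most read complete model, and its value holds for that length only. Of 8 calcineurin pathway genes tested, 2 were lower in replicate 2 and 6 did not pass Fisher's exact test. This count lies near the 26.0% of all genes called in either direction. The catalytic subunit gene Ppp3ca had 359 and 250 reads (log2 ratio -1.06).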

How the data were processed

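The authors deposited whole-number counts of long reads per transcript model with no normalization, and gene models on mm10 with the GENCODE M21 annotation, per the file headers and notes. TALON is the named source of unannotated models. The sources used here do not name the platform, aligner, versions or read filters. Models were joined between libraries by chromosome, strand and intron chain. ERCC spike-ins (30993 and 31067 reads) were left out of totals, and the rest were scaled to CPM. Fisher's exact test compared each annotated gene with 10 or more reads, and isoform shares used chains with 5 or more reads in genes with 20 or more per library (exact test for 2 isoforms, otherwise 100000 Monte Carlo permutations). P-values were adjusted by Benjamini-Hochberg. Complete reads are of the Known, NIC and NNC classes. The length trend was a lowess fit (fraction 0.4) on the log2 length of each gene's most read complete model. The other deposited columns, exon number and model length, were checked against the gene models. The scripts for the tests were first checked on simulated data, from which no value is given. Reads carry no molecular identifiers, so intervals and floors cover counting error only, and p-values hold no spread between animals.

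Members, lists and tests were chosen with earlier results of these data known. Named were all members, some but not all of their chains with 2% or more of the reads (at most 6 a gene), the most read 4 genes of other lists and the nearest 2 Z-disc genes. Short Actn3 forms, skipped exons, retained introns, splice sites and single markers were named after their values were seen. Tests of incomplete reads, the background of incomplete chains and the count of sites after AG were added after seeing the data. Used were scipy 1.17.1, statsmodels 0.14.6, biopython 1.88 and matplotlib 3.10.9 in Python 3.11.15, with pandas 2.3.3 and numpy 2.4.6, and R 4.3.3, edgeR 4.0.16 (TMM) and DESeq2 1.42.0 (size factors).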

Additional observations from a re-analysis of the deposited data

How the results depend on the processing

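With the length trend removed, 1 of the 7 genes was higher in replicate 2 in place of 3: Tcap (log2 ratio 0.05) and Myoz1 (0.00) lost their calls, and Myoz3, never called, turned to 0.25. For Myoz3 the trend was applied at 3436 bases, while 17 reads of replicate 1 and 18 of replicate 2 fell in unspliced models of 2042 and 1844 bases. The 3 lower genes, Actn2, Actn3 and Myot, passed under all 7 alternatives run. Of the other Z-disc genes, those higher numbered 6 with TMM or with DESeq2 size factors and 5 without the length trend, in place of 3, while those lower numbered 13, 13 and 11 in place of 15. TMM and DESeq2 scaling shift every gene by 0.18, and the length trend is fitted over all genes. The shares of all genes called under these settings are not given here, so the changed counts are not read as results about Z-disc genes. Isoform shares differed for 1 member in place of 2 with isoforms of 1 read let in and at an adjusted p of 0.01. The mean Actn3 share of alpha-actinin reads was 80.0% from complete chains against 71.8%, with the direction between the libraries turned, because the incomplete Actn2 reads are then left out. Leaving out each replicate gave this share as 70.3% to 73.3% and the Myoz1 share of myozenin reads as 89.4% to 94.5%. The log2 ratio of Actn2 ran from -1.11 (complete chains) to -0.15 (length trend removed) and that of Actn3 from -0.90 to -0.39, both past the threshold throughout. The mean of Myoz2, 235 CPM, was 126 without replicate 2 and 344 without replicate 1. No paired analysis was possible because the labels give 1 group. Depth limits Myoz3 to 1 full-length read a library and Myoz2 to 135 reads in replicate 1. Intervals hold counting error alone, and with 2 libraries the spread between animals rests on 1 difference.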
